A study of Arabidopsis thaliana with 12 samples.

Results

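The circadian clock genes described here are *CCA1* (AT2G46830), *RVE1* (AT5G17300), *PRR5* (AT5G24470), *GI* (AT1G22770) and *ELF4* (AT2G40080). Each was found by its locus, through the gene annotation of the array platform or through the locus column of the study's list of regulated genes, and each had 1 probe set on the array. These are 5 of the 38124 probe sets tested. The study measured transcript levels at dawn in whole seedlings, to find which genes respond to the long night of short days and which of these responses need the PIF transcription factors.

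The array data hold 4 groups of 3 biological replicates. WT seedlings were *Arabidopsis thaliana* Col-0 without a mutation named, and *pifq* seedlings carried mutations in *PIF1*, *PIF3*, *PIF4* and *PIF5* together, whose alleles the sources used here do not name. All seedlings were 3 days old, were grown without sucrose and spent 2 days in short days (SD) of 8 h white light at 85 μmol m-2 s-1 and 16 h darkness. The WT SD and *pifq* SD groups then stayed in SD and were harvested when the night ended, at 24 h. The WT LL and *pifq* LL groups instead spent the third day in continuous white light and were harvested at the matching time, the end of the subjective night. How many seedlings made up a sample is not stated, and *pifq* is a single line that lacks the factors throughout life, in LL as in SD. LL differs from SD both in the missing night and in being the first cycle without a light-dark change, and these cannot be told apart. All groups were sampled only at this time of day. For genes that cycle, a lower level and a shifted time of the peak therefore cannot be told apart.

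The circadian clock of *Arabidopsis* is a set of transcription factors that repress and activate each other, so that different genes peak at different times of day. Morning factors of the MYB-like family, such as CCA1, repress genes expressed later, the pseudo-response regulators repress the morning factors from the day into the night, and the evening complex, which contains ELF4, represses genes during the night. Light resets this cycle, and in SD a seedling reaches dawn after a long darkness in which PIF proteins accumulate and the hypocotyl elongates.

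The values were the deposited log2 signals, and array medians lay between 5.0009 and 5.1246. For 3 of the PIF genes the signal was lower in the mutant. *PIF3* averaged 7.68 in WT SD and 3.62 in *pifq* SD, *PIF5* averaged 9.64 and 5.91, and *PIF1* averaged 8.35 and 6.74, while *PIF4* had no named probe set. These 3 are named only through the study's list, which was drawn in part from *pifq* SD against WT SD. The list did not use the LL comparison of the genotypes. There *PIF3* averaged 7.20 in WT and 3.79 in *pifq*, *PIF5* 9.83 and 6.44, and *PIF1* 8.32 and 6.31. Of 14 marker genes for photosynthetic tissue, roots and seed storage only 2 had a named probe set, both for roots. *PYK10* was at the 99.6 to 99.8 percentile of each array and *EXPA7* at the 77.5 to 83.8 percentile, so roots were present as in whole seedlings, and the green tissue was not checked. In samples of whole seedlings, fewer cells of a type and less RNA per cell cannot be told apart.

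How the members were named limits what can be read from some counts. All 5 are in the study's list of regulated genes, and 4 of them (*CCA1*, *RVE1*, *PRR5* and *ELF4*) are named only through it. That list was drawn from WT SD against WT LL and from *pifq* SD against WT SD, so the members' changes in these 2 comparisons are given as a description. Of all probe sets named only through the list, 80.1% were called between the WT groups in either direction, and 50.1% were called lower. Of probe sets that the platform names and the rows of the list held here do not, 2.51% were called, and 0.819% lower. Part of the list was not held. The comparison of *pifq* SD with *pifq* LL was not used to draw the list, though it includes the *pifq* SD arrays. Of the probe sets named only through the list, 37% were called in it in either direction, and 23.3% were called lower.

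*CCA1* encodes a MYB-like repressor at the core of the clock that peaks around dawn. Its log2 signal was 9.95, 10.01 and 10.07 in the 3 WT SD arrays, and 10.66, 10.77 and 10.67 in WT LL. In *pifq* SD it was 10.54, 10.45 and 10.75, and in *pifq* LL 10.68, 10.56 and 10.76. WT SD was thus the low group, with a gap of 0.59 to the lowest WT LL array, and the other 3 groups overlapped each other. In order of their means the groups ran WT LL (10.70 ± 0.06, standard deviation, n = 3), *pifq* LL (10.67 ± 0.10), *pifq* SD (10.58 ± 0.15) and WT SD (10.01 ± 0.06), and only the last step was larger than the spread between replicates.

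*CCA1* fell in WT SD relative to WT LL by 0.69 ± 0.11 on the log2 scale (SE, limma adjusted p = 0.00313), which is 1.62 fold lower. In *pifq* SD relative to *pifq* LL the log2 difference was -0.08, with a 95% confidence interval of -0.33 to 0.16 (adjusted p = 0.763). Falls of more than 0.33 thus lay outside the interval in the mutant. Between the genotypes in SD, *CCA1* was 0.57 ± 0.11 higher in *pifq* (adjusted p = 0.0318). This is 1.49 fold, short of the 1.5 fold that a call also requires, and it was not called. The adjusted p was 0.239 with only the arrays compared in the fit, and 0.0376 to 0.135 without each array in turn. In LL the genotypes differed by -0.03 (95% confidence interval -0.28 to 0.21, adjusted p = 0.986).

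*RVE1* encodes a MYB-like factor related to CCA1, known as a clock output that promotes auxin production and hypocotyl growth. On the log2 scale its signal was 10.43, 10.61 and 10.54 in WT SD, and 11.36, 11.34 and 11.23 in WT LL. In *pifq* SD it was 11.31, 11.32 and 11.37, and in *pifq* LL 11.64, 11.59 and 11.53. As with *CCA1*, WT SD stood below every other array, by at least 0.62. The *pifq* SD arrays (mean 11.34 ± 0.03, standard deviation) overlapped those of WT LL (11.31 ± 0.07), and the *pifq* LL arrays (11.59 ± 0.06) lay above all others.

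In WT, *RVE1* fell in SD by 0.78 ± 0.10 (adjusted p = 0.000645), 1.72 fold. In *pifq* the log2 difference was -0.25 (95% confidence interval -0.47 to -0.04), and the SD and LL arrays did not overlap, with a gap of 0.16, but the change was not called (adjusted p = 0.192). *RVE1* was the member called between genotypes in SD. It was 0.81 ± 0.10 higher in the mutant in SD (adjusted p = 0.00234), 1.75 fold, and higher in each of the 3 arrays than in any WT SD array. In LL it was 0.28 higher in *pifq* (95% confidence interval 0.07 to 0.49) with no overlap of the groups, and this was not called (adjusted p = 0.689).

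**Figure D1:**
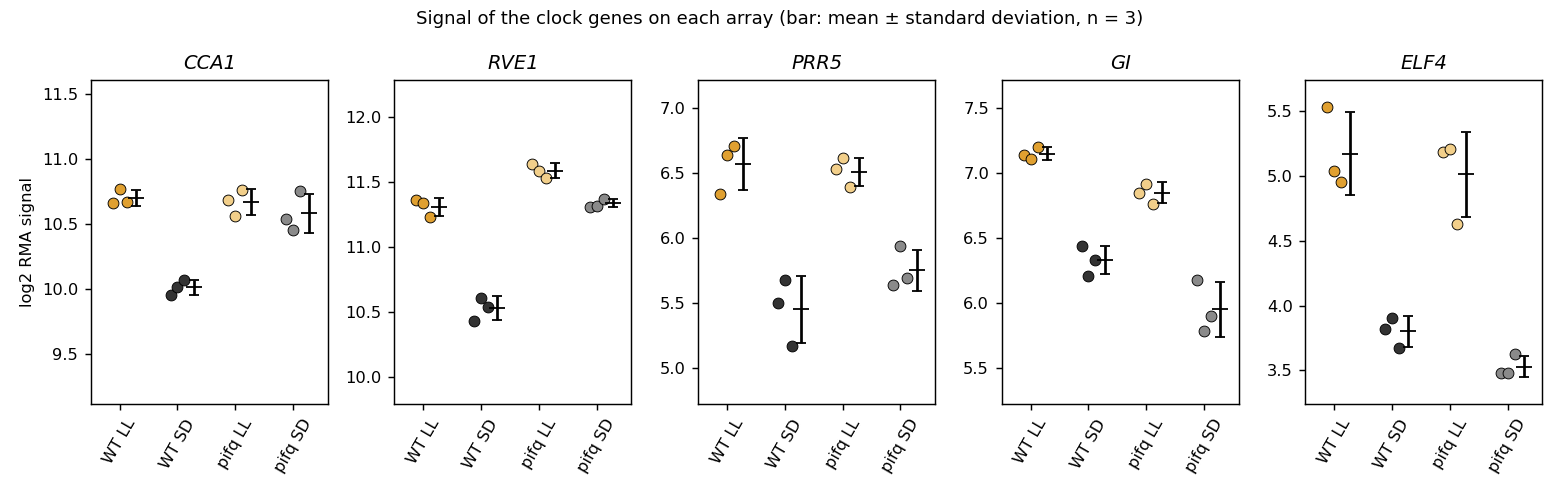
Log2 RMA signal of each of the 5 clock genes on the 12 arrays, by group, with the mean and standard deviation of the 3 replicates beside the points; the panels span equal ranges from different baselines, since signals of different probe sets cannot be set against each other. *CCA1* and *RVE1* have WT SD as the separate low group, whereas *PRR5*, *GI* and *ELF4* have both SD groups below both LL groups.

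*PRR5* encodes a pseudo-response regulator, a transcriptional repressor of *CCA1* and its relatives that is expressed from midday to evening. Its log2 signal was 5.50, 5.68 and 5.17 in WT SD, and 6.34, 6.64 and 6.71 in WT LL. In *pifq* SD it was 5.64, 5.94 and 5.69, and in *pifq* LL 6.53, 6.62 and 6.39. Every SD array was thus below every LL array, whichever the genotype, while the genotypes overlapped within SD and within LL.

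*PRR5* fell in WT SD by 1.11 ± 0.16 (adjusted p = 0.00174), 2.17 fold, and in *pifq* SD by 0.76 ± 0.16 (adjusted p = 0.026), 1.69 fold. The second call was lost without *pifq* SD replicate 1 or 3 or without any of the 3 *pifq* LL arrays, with adjusted p from 0.051 to 0.0932, and with only the arrays compared in the fit (adjusted p = 0.108). In SD the genotypes differed by 0.30 (95% confidence interval -0.05 to 0.66, adjusted p = 0.588).

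*GI* encodes a large plant-specific protein expressed towards the evening, which acts with blue light receptors of the ZTL family in the clock and in day length sensing. It is the member that the platform annotation itself names. Its log2 signal was 6.44, 6.21 and 6.33 in WT SD, and 7.14, 7.11 and 7.20 in WT LL. In *pifq* SD it was 6.18, 5.78 and 5.90, and in *pifq* LL 6.85, 6.92 and 6.76. None of the 4 groups overlapped another, in the order WT LL, *pifq* LL, WT SD and *pifq* SD.

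*GI* fell in SD by 0.83 ± 0.12 in WT (adjusted p = 0.00216), 1.77 fold, and by 0.89 ± 0.12 in *pifq* (adjusted p = 0.00355), 1.86 fold. The call in *pifq* was lost with only the arrays compared in the fit (adjusted p = 0.0894). It was lower in *pifq* than in WT in both light regimes, without passing the test in either. The log2 difference was -0.37 in SD (95% confidence interval -0.65 to -0.10, adjusted p = 0.245), where the nearest arrays were 0.03 apart, and -0.31 in LL (95% confidence interval -0.58 to -0.03, adjusted p = 0.759), where they were 0.19 apart.

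*ELF4* encodes a small protein of the evening complex, which represses *PRR* genes and *PIF4* and *PIF5* in the evening. The *ELF4* log2 signal was 3.82, 3.90 and 3.67 in WT SD, and 5.53, 5.04 and 4.95 in WT LL. In *pifq* SD it was 3.48, 3.48 and 3.63, and in *pifq* LL 5.18, 5.21 and 4.63. The highest SD array was below the lowest LL array of either genotype. Over the arrays *ELF4* lay at the 23.5 to 56.6 percentile, and its SD values were all below the array medians. How near these weak signals are to background was not tested. In both LL groups 1 array stood apart from the other 2, which gave these groups the widest standard deviations of the members (0.32 and 0.33).

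*ELF4* had the largest change of the 5 members, falling by 1.38 ± 0.19 in WT SD (adjusted p = 0.00136), 2.6 fold, and by 1.48 ± 0.19 in *pifq* SD (adjusted p = 0.00243), 2.78 fold. Between genotypes the log2 difference of *ELF4* was -0.26 in SD (95% confidence interval -0.69 to 0.16, adjusted p = 0.752) and -0.16 in LL (95% confidence interval -0.59 to 0.26, adjusted p = 0.945).

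Set side by side, all 5 members fell in SD in the WT and passed both parts of the call, where 3.43% of all probe sets were called lower. For the 4 members named through the list this count follows from how they were named. *GI* is named by the platform but is in the list as well. Of the platform-named probe sets in the list, 84.5% were called between the WT groups in either direction, so its call is a description too. In *pifq* SD relative to *pifq* LL, 3 of the 5 members were called lower (*PRR5*, *GI* and *ELF4*), where 1.88% of all probe sets were. A nearer background is the 1307 probe sets called lower in WT SD, of which 37% were also called lower in *pifq* SD, with a median log2 change of -0.56. The members had a median of -0.76 in *pifq* and ran from -1.48 for *ELF4* to -0.08 for *CCA1*. Of all probe sets, 0.359% had a lower value than *ELF4* in this comparison, 2.09% a lower value than *GI*, 3.42% than *PRR5*, 23.7% than *RVE1* and 41.4% than *CCA1*.

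**Figure D2:**
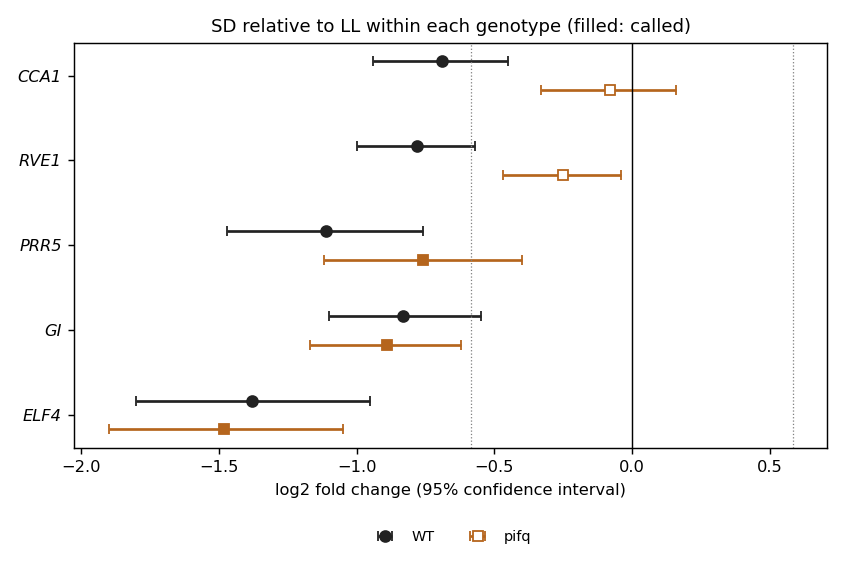
Log2 fold change of SD relative to LL for the 5 clock genes, in WT (circles) and in *pifq* (squares), with 95% confidence intervals from the limma fit; filled symbols passed the call and dotted lines mark 1.5 fold. The WT values run from -1.38 to -0.69 and are all filled, and in *pifq* those of *CCA1* (-0.08) and *RVE1* (-0.25) are open.

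Whether a gene responded differently in the mutant was tested as the difference of the SD responses, *pifq* minus WT. The WT SD arrays enter this difference and also the comparisons that the study's list was drawn from, so a low WT SD value raises it. The members had a median difference of 0.35, against 0.00 for all probe sets and 0.38 for the 1307 probe sets called lower in WT SD. None of the 5 members was called by limma. Of all probe sets 0.152% were, which is 58, and 6 to 26 without each array in turn. Of the members, 2 had an unadjusted p under 0.05, as had 6.58% of all probe sets. These were *CCA1*, with a difference of 0.61 ± 0.16 (95% confidence interval 0.26 to 0.96, adjusted p = 0.28), and *RVE1*, with 0.53 ± 0.14 (95% confidence interval 0.23 to 0.83, adjusted p = 0.271). *CCA1* passed the call when the variance was moderated with a trend on signal and robustly (adjusted p = 0.0483), and *RVE1* then had an adjusted p of 0.0217 with its difference under 1.5 fold. For *PRR5* the difference was 0.35 (95% confidence interval -0.15 to 0.86), for *ELF4* -0.10 (-0.70 to 0.50) and for *GI* -0.07 (-0.46 to 0.32). The interval of *GI* lies within 1.5 fold (0.585 on the log2 scale) in both directions, and those of *PRR5* and *ELF4* reach past it.

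Between genotypes in SD, 1 member was called (*RVE1*, higher in *pifq*), where 0.635% of all probe sets were called higher and 0.847% lower. Nearer backgrounds are the probe sets named only through the study's list, of which 24.1% were called in either direction and 15.3% lower, and the 1307 called lower in WT SD. Of the latter, 12.9% were called higher in *pifq* SD. At the adjusted p alone 2 members passed, *RVE1* and *CCA1*, against 1.71% of all probe sets. *RVE1* was not called with only the arrays compared in the fit (adjusted p = 0.0901). This comparison shares the WT SD arrays with that of WT SD and WT LL, so a low WT SD value enters both. Between genotypes in LL, no member was called by limma, where 0.0184% of all probe sets were, and 2 members (*RVE1* and *GI*) had an unadjusted p under 0.05, as had 6.24% of all probe sets.

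**Figure D3:**
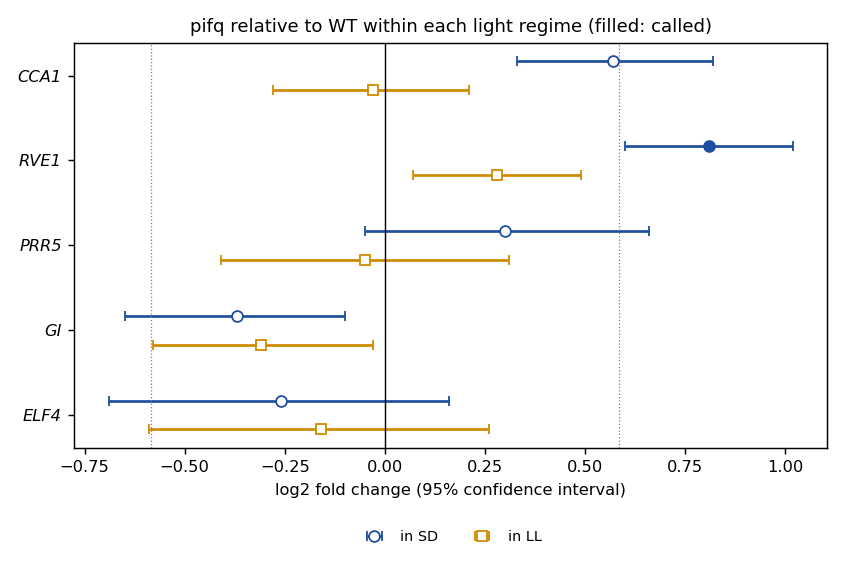
Log2 fold change of *pifq* relative to WT for the 5 clock genes, in SD (circles) and in LL (squares), with 95% confidence intervals from the limma fit; filled symbols passed the call and dotted lines mark 1.5 fold. The 2 morning genes lie to the right in SD (*CCA1* 0.57, *RVE1* 0.81), *GI* lies to the left in both regimes (-0.37 and -0.31), and only *RVE1* in SD is filled.

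Over the 12 arrays the 5 members fell into similar profiles by pairs, given as a description since all share the same 4 groups. The log2 signal of *CCA1* and *RVE1* had a Pearson r of 0.919, and that of *ELF4* and *GI* had 0.923. Across these pairs the correlations were lower, at 0.405 for *CCA1* and *GI*, 0.319 for *RVE1* and *GI*, 0.53 for *CCA1* and *ELF4* and 0.528 for *RVE1* and *ELF4*. *PRR5* lay between, with 0.86 to *ELF4*, 0.77 to *GI*, 0.739 to *RVE1* and 0.729 to *CCA1*. Within groups, after the group means were taken out, *CCA1* and *RVE1* correlated by 0.214 and *ELF4* and *GI* by 0.095, so the likeness of these pairs lay in the group means. The highest such correlation of any 2 members was 0.614, for *RVE1* and *ELF4*.

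The members were then read against a wider list of 53 clock and photoperiod genes, of which 20 had a named probe set. Of these 20, 16 are in the study's list, so the counts carry the same limit as above. In WT SD 12 were called lower, 3 higher and 5 were not called, where 3.43% and 3.16% of all probe sets were called lower and higher. Their median log2 change was -0.72, against -0.01 for all probe sets. In *pifq* SD 8 were called lower, 2 higher and 10 were not called, where 1.88% and 1.79% of all probe sets were called lower and higher, and the median was -0.33. The 4 measured genes outside the rows of the study's list held here (*RVE5*, *TIC*, *XCT* and *FIO1*) had log2 changes of -0.18 to 0.06 in WT and -0.42 to 0.14 in *pifq*, and none of them was called.

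Of the 10 genes of the morning MYB-like family 8 were measured, and they did not all follow *CCA1*. In WT SD 5 were called lower (*CCA1*, *RVE1*, *RVE2*, *RVE3* and *RVE6*) and *RVE7* was called higher, while in *pifq* SD 3 were called lower, *RVE7* higher and 4 were not called. *RVE2*, another MYB-like factor with circadian expression, went from 10.34, 10.57 and 10.36 in WT LL to 9.12, 9.12 and 9.25 in WT SD. In *pifq* it went from 11.04, 10.80 and 10.74 in LL to 9.25, 9.23 and 9.31 in SD. *RVE2* thus fell in both genotypes, with log2 changes of -1.26 ± 0.12 in WT (adjusted p = 0.000126) and -1.60 ± 0.12 in *pifq* (adjusted p = 0.000131).

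*RVE3* also fell in both, with log2 changes of -2.05 in WT and -1.74 in *pifq*, as did *RVE6*, with -0.71 and -0.65. *RVE7* rose, by 0.90 ± 0.12 in WT (adjusted p = 0.00122) and 1.30 ± 0.12 in *pifq* (adjusted p = 0.000458). *RVE8* encodes a factor of the family that activates evening genes. Its log2 signal was 8.86, 9.11 and 8.90 in WT SD, 9.41, 9.61 and 9.46 in WT LL, 9.39, 9.70 and 9.39 in *pifq* SD, and 9.49, 9.41 and 9.46 in *pifq* LL. As for *CCA1*, WT SD was the low group and the other 3 groups overlapped. The log2 change of *RVE8* was -0.54 in WT (adjusted p = 0.0215, under 1.5 fold) and 0.04 in *pifq*, neither called, and the difference of the responses was 0.58 (adjusted p = 0.412). In *pifq* SD relative to WT SD, 7 of the 8 measured family members had a log2 difference above 0, where 55.5% of all probe sets did. Their median was 0.46, against 0.03 for all probe sets and 0.31 for the probe sets called lower in WT SD, and *RVE1* was called. Of these 8 genes 6 are named only through the study's list, which was drawn in part from this comparison, and the 2 that the platform names had -0.05 (*RVE5*) and 0.20 (*RVE6*), a median of 0.08.

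*LNK1* encodes a coactivator that works with RVE8 and its relatives on evening genes such as *PRR5* and *ELF4*. Its log2 signal was 7.80, 7.46 and 7.43 in WT SD, and 8.15, 8.42 and 8.33 in WT LL. In *pifq* SD it was 8.12, 7.73 and 8.24, and in *pifq* LL 7.96, 7.64 and 7.74. The groups were apart in WT and overlapped in *pifq*, the SD mean being the higher there. *LNK1* fell in WT SD by 0.74 ± 0.17 (adjusted p = 0.0203), the log2 difference in *pifq* was 0.25 (95% confidence interval -0.13 to 0.62), and the difference of the responses was 0.98 ± 0.24 (adjusted p = 0.214, not called).

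Among the other clock-associated genes, *GRP7*, which encodes an RNA-binding protein under clock control, fell, with log2 changes of -1.42 in WT and -1.02 in *pifq*. *JMJD5*, for a JmjC-domain protein that affects the clock period, rose by 0.93 in WT and 0.79 in *pifq*. Of the photoperiod genes 3 of 8 were measured. *CDF1*, a repressor of the flowering gene *CO* whose protein GI helps to remove, fell, with log2 changes of -1.90 ± 0.22 in WT and -1.03 ± 0.22 in *pifq*. *COL2*, a relative of *CO*, fell by 1.23 in WT, and its log2 change in *pifq* was -0.40 (adjusted p = 0.177). *CDF5*, a relative of *CDF1*, was the photoperiod gene that rose in WT on the probe set used. Its log2 change in *pifq* was 0.00 (adjusted p = 0.994). Alone among the 20 measured genes, *CDF5* had 2 probe sets, with mean log2 signals of 6.29 (used) and 4.63 (left out). Averaging the probe sets of a locus alters the values of *CDF5* alone among these genes. The list then had 14 calls between the WT groups in place of 15, so the rise of *CDF5* may depend on the probe set. Between genotypes in SD, 2 of the 20 listed genes were called higher in *pifq* (*RVE1* and *COL2*), 1 lower (*CDF5*) and 17 were not called, where 0.635% of all probe sets were called higher and 0.847% lower. Over the whole list no gene was called for the difference of responses by limma. Of the 20, 9 had an unadjusted p under 0.05, where 6.58% of all probe sets had such a p. The difference, *pifq* minus WT, was above 0 for 7 of these and below 0 for 2. As 16 of the 20 are in the study's list, these counts too are a description.

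**Figure D4:**
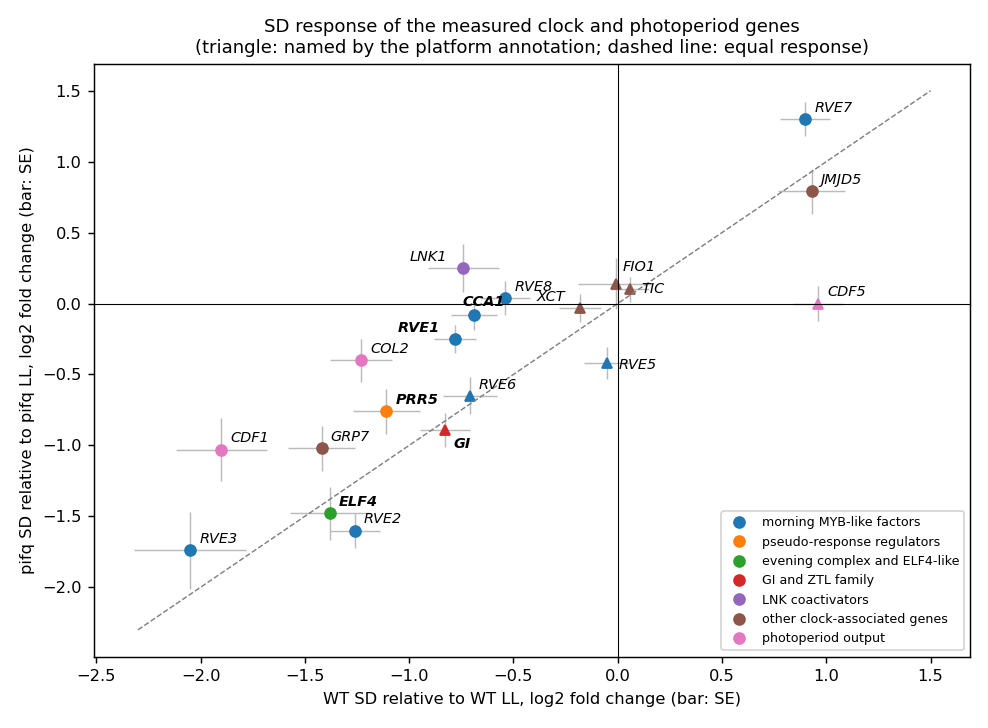
Log2 fold change of SD relative to LL in *pifq* (vertical axis) against that in WT (horizontal axis) for the 20 measured clock and photoperiod genes, with SE bars; members are in bold, triangles mark genes the platform annotation names, and the dashed line marks equal responses. *ELF4*, *GI* and *RVE6* lie near the line, whereas *CCA1*, *RVE1*, *RVE8* and *LNK1* lie above it with *pifq* values from -0.25 to 0.25. The photoperiod genes *CDF1* (-1.90 in WT, -1.03 in *pifq*) and *COL2* (-1.23 and -0.40) lie above it too. *CDF5* (0.96 and 0.00) lies below it.

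For each member the 3 genes with the most similar profile were taken from 17416 candidates with a gene name, by Pearson r of the log2 signal over the 12 arrays in 4 groups. For *CCA1* these were AT1G44000 (r = 0.982), AT3G27050 (0.981) and AT1G76450 (0.975). Their group means had the same form, AT1G44000 for instance averaging 10.47 in WT SD and 11.28 to 11.49 in the other 3 groups. For *RVE1* they were *PPD5* (AT5G11450, r = 0.984), AT5G19850 (0.977) and AT1G47530 (0.977). After the group means were taken out, these correlated with *RVE1* by 0.596, 0.063 and 0.124, so the likeness of the last 2 lay in the group means. The genes nearest to *CCA1* then correlated with it by 0.727 to 0.808, and those nearest to the other members by 0.479 to 0.97. AT5G19850 averaged 7.07 in WT SD, 8.43 in WT LL, 8.29 in *pifq* SD and 8.69 in *pifq* LL.

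For *PRR5* the nearest were *NCS1* (AT5G03555, r = 0.969), AT1G65490 (0.968) and AT5G38980 (0.967), the last averaging 5.2 and 5.56 in the SD groups of WT and *pifq* and 7.36 and 7.15 in their LL groups. For *ELF4* they were *LAC13* (AT5G07130, r = 0.974), *KUP9* (AT4G19960, 0.972) and AT2G22510 (0.969). For *GI* they were AT1G22410 (r = 0.993), *RD22* (AT5G25610, 0.99) and AT3G52870 (0.99). *RD22*, a gene known for its rise in drought, had the same order of the 4 group means as *GI*, from 9.56 in WT LL through 9.21 in *pifq* LL and 8.34 in WT SD to 7.67 in *pifq* SD.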

How the data were processed

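Transcript levels were measured in 12 samples on AraGene 1.0 ST arrays, 1 array per sample, and the number of arrays limits the precision. The authors deposited RMA signals on the log2 scale, as named in the submitters' processing notes, and the RMA version and the genome build are not given in the sources used here, so no coordinates are printed. Rosetta Resolver, used for the study's own list, was not used here.

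Probe sets were named through the platform annotation (16714 with 1 gene) or only through the study's list (1039), of which 1999 rows were held here and further rows were not. A probe set outside the list is thus outside the rows held, and clock genes such as *LHY*, *TOC1*, *PRR7* and *PRR9* may lack a named probe set for that reason. A locus with several probe sets was represented by the one with the highest mean, and 98 control probe sets and 186 further probe sets of a locus were left out. Identical values on all 12 arrays occur for 7102 of the 38124 probe sets, none of them a member's.

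A limma model (version 3.58.1, R 4.3.3) with 4 group means was fitted to the 12 arrays. Calls required 1.5 fold and a Benjamini-Hochberg adjusted p, over all probe sets, below 0.05. Adjusted p values are from this fit unless an alternative is named beside them. They set each change against the spread between biological replicates, pooled over the 4 groups and moderated across probe sets. Tables and figures were made with Python 3.11.15, pandas 2.3.3, numpy 2.4.6 and matplotlib 3.10.9. The members and the gene lists were chosen with earlier results of these data known. The genes named are the members, the measured genes of the clock and photoperiod list, the PIF genes, and the 3 named genes nearest to each member. Alternatives were other scalings, a filter on low signals, other variance models, array weights, a fit of only the arrays compared, and the adjusted p alone. Further ones were the mean of the probe sets of a locus, identical probe sets counted once, the replicate number as a block, and fits without each array in turn.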

Additional observations from a re-analysis of the deposited data

How the results depend on the processing

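Of 540 values of single members under the alternatives, 520 kept their direction and their side of the threshold, 8 lost and 4 gained the call, and 8 changed sign. Part of these values could hardly move. Each member has 1 probe set with values of its own, so the settings on probe sets left its log2 difference unchanged. The adjusted p alone left it unchanged too, as did leaving out an array of a group not compared. The share kept is thus no measure of how firm the calls are. The 5 calls in WT SD relative to WT LL held under all alternatives that could be run, and in all 12 fits without an array. For *pifq* SD relative to *pifq* LL, 3 members were called, but 1 (*ELF4*) with only the arrays compared in the fit, and 2 to 3 without each array in turn, *PRR5* being the gene lost. For *pifq* SD relative to WT SD the 1 member called became 2 with array weights or with the adjusted p alone, 0 with only the arrays compared, and 1 to 2 without each array in turn. The second was *CCA1*, which passed without *pifq* SD replicate 2 at a log2 difference of 0.64 (adjusted p = 0.0376). For the difference of the SD response, 0 members became 1 (*CCA1*) with a trended and robust variance. The cause of these changes was not tested.

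Signs changed only for differences near 0, in fits without 1 array. The difference between genotypes in LL ran from -0.08 to 0.02 for *CCA1*, from -0.28 to 0.02 for *ELF4* and from -0.16 to 0.02 for *PRR5*, and the difference of responses ran from -0.29 to 0.02 for *ELF4* and from -0.18 to 0.02 for *GI*.

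For the list of 20 genes, in settings chosen after the values were seen, the 10 calls in *pifq* SD relative to *pifq* LL became 3 with only the arrays compared, and 6 without *pifq* SD replicate 3 or *pifq* LL replicate 2. The 3 calls between genotypes in SD became 0 with only the arrays compared. With the mean of the probe sets of a locus they stayed 3, while the 15 calls between the WT groups became 14. The 0 calls for the difference of responses became 1 with the filter on low signals and 2 with a trended and robust variance.

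Arrays with the same replicate number deviated together by a correlation of 0.147, 0.348 and 0.08 between *pifq* SD and WT SD. Of these, 0.147 and 0.348 are above the 0.1 set as a threshold for pairing. In the other comparisons the correlation was -0.066 to 0.055. The main fit did not use the numbers as pairs, so a replicate effect shared by the SD groups was not taken out of it. With a replicate block the members called were 5 in WT SD relative to WT LL, 3 in *pifq* SD relative to *pifq* LL, 1 in *pifq* SD relative to WT SD, and 0 in LL and for the difference of responses, the same as without it. With the block *CCA1* had an adjusted p of 0.0552 between genotypes in SD.

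Over all probe sets, the calls without each array in turn numbered 834 to 1367 in place of 1398 for *pifq* SD relative to *pifq* LL, 273 to 503 in place of 565 between genotypes in SD, and 6 to 26 in place of 58 for the difference of responses.

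Centring each array on its median moved the median change by at most 0.04 and reversed no member. The filter on low signals left out *ELF4*, so the members could not be counted under it.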
